A study of Rattus norvegicus with 4 samples.

Results

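Chromatin modifying enzymes, remodelers and histone chaperones were followed in NR8383, a line of alveolar macrophages from the rat. Members were taken by gene name, as genes with a probe whose accession maps by RefSeq to a rat symbol of the Hdac, Sirt, Kdm, Kmt, Kat, Chd, Brd, Tet, Smarc, Dnmt, Setd or Prmt families, or to Ezh1, Ezh2, Eed, Suz12, Crebbp, Ep300, Hira, Asf1a or Asf1b. This gave 82 genes with 112 probes, out of 16581 named genes with 21109 probes. RefSeq lists 129 protein-coding genes under the rule, so 47 of them had no named probe here, among them Tet1, Tet2, Tet3, Ep300, Suz12, Dnmt3b, Sirt1, Brd7, Brd9, Chd4 and Smarcc1. The series holds 1 group, a water control of 4 h, whose labels also carry the letters ALI without saying what they stand for. Its 4 arrays were hybridised with RNA of 4 samples that the design text calls biological replicates, after 20 passages and 48 h in flasks of 25 cm2. No treated or other group was analysed here, so the data give each gene's detection, its signal and its spread between replicates, and no comparison between conditions.

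DNA in the nucleus is wrapped around histones, and cells open or close genes by marking the histones or the DNA and by moving nucleosomes. Writers add acetyl or methyl groups, erasers take them off, and readers such as the bromodomain proteins bind the marked tails. Remodelers slide or evict nucleosomes with the energy of ATP, and chaperones hand new histones to the DNA. In macrophages these enzymes set which inflammatory genes can be switched on, and many of them also serve DNA replication in dividing cells.

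Levels are given as log2 of the signal over each array's own 75th percentile. A level of 0 is a signal equal to that percentile, and 1 unit is a 2-fold difference. Probes differ in affinity, so a value follows 1 probe across the arrays and does not rank genes. A gene was called detected when a probe was well above background on 4 of 4 arrays, not detected when no probe was on any array, and partly detected otherwise. The cell label held against its markers: all 10 macrophage markers were detected, and of 17 markers of alveolar epithelium, fibroblasts, endothelium, T cells, B cells and red cells only the endothelial genes Pecam1 and Cdh5 were. The share of spots well above background was 49.2% to 50.3% over the arrays, and Pearson's r between arrays over 17324 detected probes, which are not independent, was 0.990 to 0.994.

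Most of the chromatin genes were detected. Of the 82 members, 65 (79.3%) were detected, 5 partly and 12 not, whereas detection over all named genes was full for 51.0%, partial for 6.43% and missing for 42.6%. Roles were set by gene symbol, so the remodelers are all members named Smarc or Chd. Among the writers 25 of 29 were detected, among the erasers 21 of 28, among the remodelers 12 of 17, and all 5 bromodomain readers. The other genes of the same complexes, a list of 119 with 92 named, were detected to 89.1% (82 genes). The members of the rule and this list were both chosen by function, and no test was made of either share. In RNA from whole cultures, fewer expressing cells and less RNA per cell cannot be told apart. Of the 12 genes not detected, 10 had a single named probe, so their call rests on that probe alone.

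**Figure D1:**
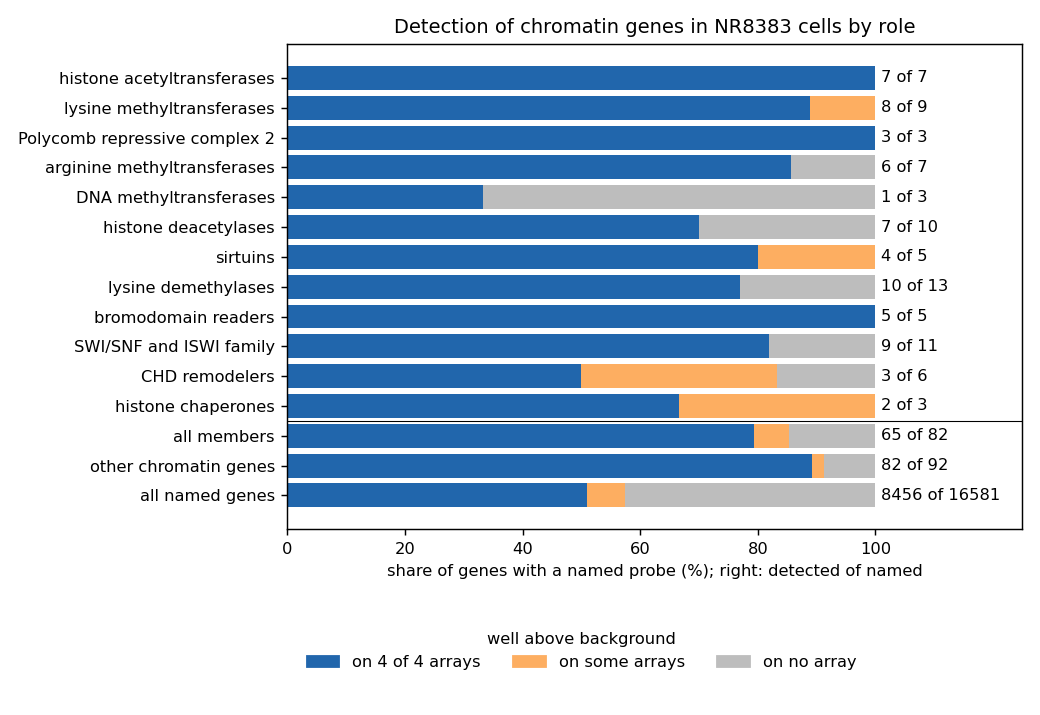
Share of genes (x axis, %) by detection for each role (y axis, the number detected of those named at the right); blue is well above background on 4 of 4 arrays, orange on some and grey on none. All acetyltransferases, Polycomb repressive complex 2 genes and bromodomain readers with a named probe were detected, while 1 of 3 DNA methyltransferases was.

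The promoters of the members, which the rule did not use, were mostly rich in CG, as were those of detected genes in general. Exceptions with no more than 10 CG were Brd3 and Hdac9 with 2, Hdac8 with 4, Chd1 with 5, Kat14 with 7 and Smarca1 with 10. Of these, Hdac9 and Smarca1 were not detected. RefSeq promoter windows of the build GRCr8 (250 bases before to 50 after the start) matched 68 of the 82 members. Windows of the 54 detected members held a median of 22 CG dinucleotides and 61.2% G and C, and 50 of them (92.6%) held more than 10 CG, as did 80.8% of all detected genes. The 11 members that were not detected had a median of 18 CG. Over all named genes the median was 21 CG in 7093 detected genes and 6 CG in 5630 that were not detected. The median of the members not detected lay nearer to that of all detected genes than to that of all genes not detected. Short motifs were searched on both strands, and matches of different motifs may overlap. The GC box GGGCGG was in 48 of 68 member windows (70.6%), where 48.2% of all named genes' windows held it. The ETS core CCGGAAG was in 20.6% of member windows and 12.7% of all, and CCAAT in 45.6% and 37.9%. The palindromic NRF1 motif was in 17.6% of member windows and 9.08% of all. The E2F forms TTTCCCGC or TTTGGCGC were in 4 member windows (5.88%) and 2.18% of all. Among detected genes alone the GC box was in 70.4% of member windows and 62.1% of all, ETS in 24.1% and 20.6%, and NRF1 in 14.8% and 13.8%, closer than over all named genes. CCAAT, in 50.0% and 39.2%, and E2F, in 7.41% and 3.24%, lay further apart in percentage points. Both member shares of E2F rest on the same 4 windows. A match is a run of letters and not a shown binding site.

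The 250 bases before the start are shown for 4 members on which later results turn: Hira, Prmt1, Asf1b and Dnmt3l. Among detected members, by the brightest probe, Hira varied most between replicates and Asf1b least. The probes of Prmt1 moved together, and Dnmt3l was not detected. All lie on the minus strand of GRCr8, are written 5′ to 3′ in the direction of the gene, and have each CG in capitals. They are chr11:95637566-95637815 for Hira, chr1:104604546-104604795 for Prmt1, chr19:41100353-41100602 for Asf1b and chr20:10628990-10629239 for Dnmt3l.
Hira: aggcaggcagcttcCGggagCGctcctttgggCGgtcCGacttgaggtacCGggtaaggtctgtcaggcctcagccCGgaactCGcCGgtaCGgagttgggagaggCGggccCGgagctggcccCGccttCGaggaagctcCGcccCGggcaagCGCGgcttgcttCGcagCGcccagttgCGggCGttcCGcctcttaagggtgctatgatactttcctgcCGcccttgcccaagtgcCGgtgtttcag
Prmt1: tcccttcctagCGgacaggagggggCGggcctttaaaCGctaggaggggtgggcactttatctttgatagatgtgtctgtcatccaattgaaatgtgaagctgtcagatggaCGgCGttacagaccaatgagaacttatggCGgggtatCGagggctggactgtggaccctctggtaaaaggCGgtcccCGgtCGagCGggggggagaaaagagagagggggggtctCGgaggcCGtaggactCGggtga
Asf1b: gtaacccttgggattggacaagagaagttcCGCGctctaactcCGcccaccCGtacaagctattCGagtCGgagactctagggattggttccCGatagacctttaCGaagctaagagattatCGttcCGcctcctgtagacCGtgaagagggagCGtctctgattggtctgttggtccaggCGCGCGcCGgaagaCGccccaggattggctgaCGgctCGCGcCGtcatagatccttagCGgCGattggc
Dnmt3l: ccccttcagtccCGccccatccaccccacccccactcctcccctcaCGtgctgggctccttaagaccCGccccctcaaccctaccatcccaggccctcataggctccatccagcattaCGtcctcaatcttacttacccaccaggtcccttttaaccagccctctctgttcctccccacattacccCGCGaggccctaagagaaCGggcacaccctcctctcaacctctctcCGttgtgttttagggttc
These stretches hold 24 CG for Hira, 14 for Prmt1, 23 for Asf1b and 8 for Dnmt3l. The capitals of Hira and Asf1b run through the whole stretch, while those of Dnmt3l are sparse. Dnmt3l does not stand for the members not detected: its 300-base window held 11 CG, where their median was 18.

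All 7 histone acetyltransferases with a named probe were detected. Crebbp, the coactivator CBP, was at 0.80, 0.88, 0.66 and 0.97 on replicates 1 to 4, with an SD of 0.13. Kat7, the HBO1 enzyme that also serves replication licensing, kept within 0.18 (3.40, 3.33, 3.25 and 3.43). Neither gene varied much by these probes, but a second Crebbp probe spanned 0.91 and was highest on replicate 4. Kat5, the Tip60 enzyme of the DNA damage response, was at 1.87, 1.92, 1.45 and 1.89, lowest on replicate 3. Kat6a, the MOZ enzyme of blood stem cells, was at 0.22, 0.31, 0.19 and 0.55. Kat8, the MOF enzyme for histone H4, was at -1.67, -1.78, -2.03 and -1.97. The widest range in this role was that of Kat14, a subunit of the ATAC complex, at -4.96, -4.00, -4.26 and -3.98, just under 2-fold. Kat2a, the GCN5 enzyme of the SAGA complex, was at -3.84, -3.66, -3.32 and -4.22. Neither range passed the variance test described below (unadjusted p = 0.113 for Kat14 and 0.152 for Kat2a; adjusted p = 0.957 and 0.987, limma).

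Of 9 lysine methyltransferases of the Kmt and Setd families, 8 were detected. Kmt5a, which places the first methyl group on a lysine of histone H4 and is tied to the cell cycle, was at 3.12, 3.17, 3.35 and 3.54. Kmt5b and Kmt5c, which extend that mark, spanned 0.09 and 0.20 over the arrays (means -1.26 ± 0.04 and -1.06 ± 0.09, SD, n = 4). Setdb1, a methyltransferase for histone H3 in silent chromatin, was at -1.96, -1.67, -1.73 and -1.91. By their brightest probes none of these 4 genes spanned as much as 2-fold, whereas the second Kmt5b probe was at -5.05, -4.82, -5.58 and -4.07, a range of 1.51. Setd7, which methylates histone H3 and other proteins, was at -3.14, -3.25, -3.12 and -2.55, highest on replicate 4. Setd4 averaged 1.57 ± 0.09 and Kmt2e, a member of the MLL family, 1.73 ± 0.20 (SD, n = 4). Setd6, which methylates the NF-kB subunit RelA, was partly detected, well above background on 2 arrays (-6.20, -5.31, -5.09 and -6.39). The large methyltransferases Kmt2a to Kmt2d and Setd2 had no named probe.

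The 3 genes of Polycomb repressive complex 2 with a named probe were detected. This complex writes the silencing methyl mark on histone H3, with Ezh1 or Ezh2 as its catalytic subunit and Eed as the subunit that reads the mark. Ezh1 was at 3.46, 3.54, 3.36 and 3.57, Ezh2 at -2.76, -3.06, -2.75 and -3.31, and Eed at -2.57, -2.49, -2.21 and -2.81. Ezh2 and Eed were lowest on replicate 4, where Ezh1 was highest, and no range of the 3 passed the test (adjusted p = 0.995 each, limma).

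Of 7 arginine methyltransferases, 6 were detected, and 4 of these had their highest values on replicates 2 and 3. Prmt1, the main enzyme for asymmetric arginine methylation, was at 2.72, 3.33, 3.50 and 2.79. Prmt5, the main enzyme for the symmetric form, was at 0.29, 0.61, 0.55 and 0.30. Prmt2 was at -0.61, -0.25, -0.47 and -0.85, and Prmt3, which acts on a ribosomal protein, at -4.28, -3.87, -4.09 and -4.55. In each of these 4 genes replicates 2 and 3 stood above replicates 1 and 4. Prmt7 (-1.04, -0.74, -1.22 and -1.09) and Prmt9 (0.96, 0.81, 0.67 and 0.80) did not have this order. Prmt8, a form known from the brain, was not well above background by either of its probes. Over all roles, replicates 2 and 3 were the highest pair in 18 of 65 detected members (27.7%), where 18.8% of all 8455 tested genes had that order. Replicates 1 and 3 led in 8 members, where 5.20% of all genes had that order, and replicates 1 and 2 in 8, where 18.9% had it. Replicates 1 and 4 led in 9 members (19.8% of all genes), 2 and 4 in 11 (17.5% of all) and 3 and 4 in 11 (19.9% of all). The order was read from the values, so it is a description with no test.

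Of 3 DNA methyltransferases only Dnmt3a was detected. Dnmt3a, which sets new methylation patterns, was at -3.36, -2.95, -3.05 and -3.24. Dnmt1, which copies methylation onto new strands in dividing cells, was not well above background on any array by its single named probe (-7.54, -7.38, -7.77 and -7.41), and Dnmt3l, the germ cell cofactor, was not either. In the same RNA the proliferation list was detected in full (18 of 18 named genes), among them Mki67 (1.93 ± 0.17) and Pcna (1.66 ± 0.09, SD, n = 4). Whether the Dnmt1 probe matches the transcript of these cells was not tested.

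Among 10 histone deacetylases, 7 were detected. Hdac1, a class I enzyme of the NuRD and Sin3 complexes, was at 2.40, 2.37, 2.42 and 2.49, and its SD of 0.05 was the smallest of the role. RefSeq lists 18 pseudogenes of Hdac1, and whether near copies add to the signal of this probe was not tested. Hdac3, the enzyme of the NCoR corepressor, was at -2.88, -2.57, -2.79 and -4.13, clearly lowest on replicate 4, and spanned 2.95-fold. Hdac8 was at -4.01, -3.77, -3.22 and -4.09. The gene that RefSeq names Hdac1l was at 0.67, 0.98, 1.27 and 1.23 by its brighter probe, while its second probe was highest on replicate 1 (-2.45, -2.93, -3.18 and -2.95). The 2 probes of Hdac1l thus ran opposite ways. Of the class II enzymes, Hdac4 (-0.82 ± 0.12), Hdac5 (-1.31 ± 0.24) and Hdac10 (-4.30 ± 0.08, SD, n = 4) were detected and Hdac9 was not. Hdac2, the close partner of Hdac1, and Hdac11 stayed below that threshold on every array, each by 1 probe, and Hdac6 and Hdac7 had no named probe.

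Of 5 sirtuins, which use NAD to remove acyl groups, 4 were detected. Sirt7, the nucleolar form, was at 2.16, 2.20, 2.24 and 2.29, and Sirt6, a nuclear form tied to genome stability, at 0.38, 0.27, 0.15 and 0.29. The mitochondrial forms Sirt3 (-2.31 ± 0.19) and Sirt5 (-0.53 ± 0.09, SD, n = 4) were also detected, and Sirt4 was well above background on 1 array. All ranges of the detected sirtuins were at or below 0.42.

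Of 13 lysine demethylases, 10 were detected. Kdm6b, the enzyme that removes the Polycomb mark and is known to be induced in activated macrophages, was at -1.53, -1.65, -1.56 and -1.64, the narrowest range of the role. Kdm1a, the flavin enzyme LSD1, was at -1.48, -1.05, -1.17 and -1.57, and Kdm2b, which binds unmethylated CG islands, at 1.88, 2.03, 2.08 and 1.87. These last 2 genes were both highest on replicates 2 and 3. Kdm4a was at 0.83, 0.65, 0.36 and 0.94, the widest range of the role at 0.58, and Kdm5a, an eraser of the promoter mark on histone H3, at 0.05, -0.06, -0.16 and 0.33. By these probes both were lowest on replicate 3 and highest on replicate 4, whereas the other Kdm5a probes, also detected, were lowest on replicate 1. Kdm2a, Kdm3a, Kdm4b, Kdm1b and Kdm8 had SDs of 0.09 to 0.17. Kdm4c, Kdm4d and Kdm5b did not rise well above background on any array.

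The 5 bromodomain readers were detected. Brd8, a subunit of the Tip60 complex, stayed between 1.07 and 1.15. Brd2 was at -0.84, -0.95, -0.57 and -1.17 by 1 probe and at -1.94, -2.10, -2.36 and -2.10 by the other. The probes of Brd2 differed in order, with replicate 3 highest for the first and lowest for the second. Brd3 averaged -2.01 ± 0.09 (SD, n = 4). Brd1 (-1.52 ± 0.19, SD, n = 4) was the only member whose probes differed in detection. It was well above background on 4 arrays by the probe for a predicted transcript and on 0 by the other.

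Of 11 genes with a Smarc symbol, grouped here as the SWI/SNF and ISWI family, 9 were detected. Both alternative SWI/SNF motors were among them: Smarca4, or BRG1, was at 3.07, 2.95, 2.67 and 2.66, and Smarca2, or BRM, at 0.10, 0.11, -0.02 and 0.03. Smarca4 was higher on replicates 1 and 2, and its range did not pass the test (unadjusted p = 0.095; adjusted p = 0.917, limma). The core subunit Smarcb1 was at 0.90, 0.94, 0.82 and 0.92 and the ISWI motor Smarca5 at 0.68, 0.74, 0.83 and 0.82. Among the accessory subunits, Smarcd1 averaged -0.31 ± 0.07 and Smarcd2, which is needed for granulocyte formation, 2.15 ± 0.17 (SD, n = 4). Smarcd3, the form known from heart muscle, gave no signal well above background, nor did the second ISWI motor, Smarca1. Smarcad1 and Smarcal1, which serve the replication fork and repair and are in this group by symbol only, had ranges of 0.45 and 0.33.

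Of 6 CHD remodelers, 3 were detected. Chd1, which works with elongating polymerase, was at -0.09, -0.21, -0.23 and 0.01, Chd2 averaged -1.68 ± 0.17 and Chd6 -4.11 ± 0.13 (SD, n = 4). A second Chd2 probe, also detected, spanned 1.16 and was lowest on replicate 3. Chd5, a neuronal form, was well above background on 2 arrays (-4.36, -5.11, -3.80 and -5.51). Chd7, the CHARGE syndrome gene, was at -3.13 on replicate 4, where alone it was well above background, and at -6.58, -7.51 and -7.98 on replicates 1 to 3. None of the 22 well detected spots within 3 rows and columns of the Chd7 spot deviated by more than 1 on any array. Chd1l was not detected.

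**Figure D2:**
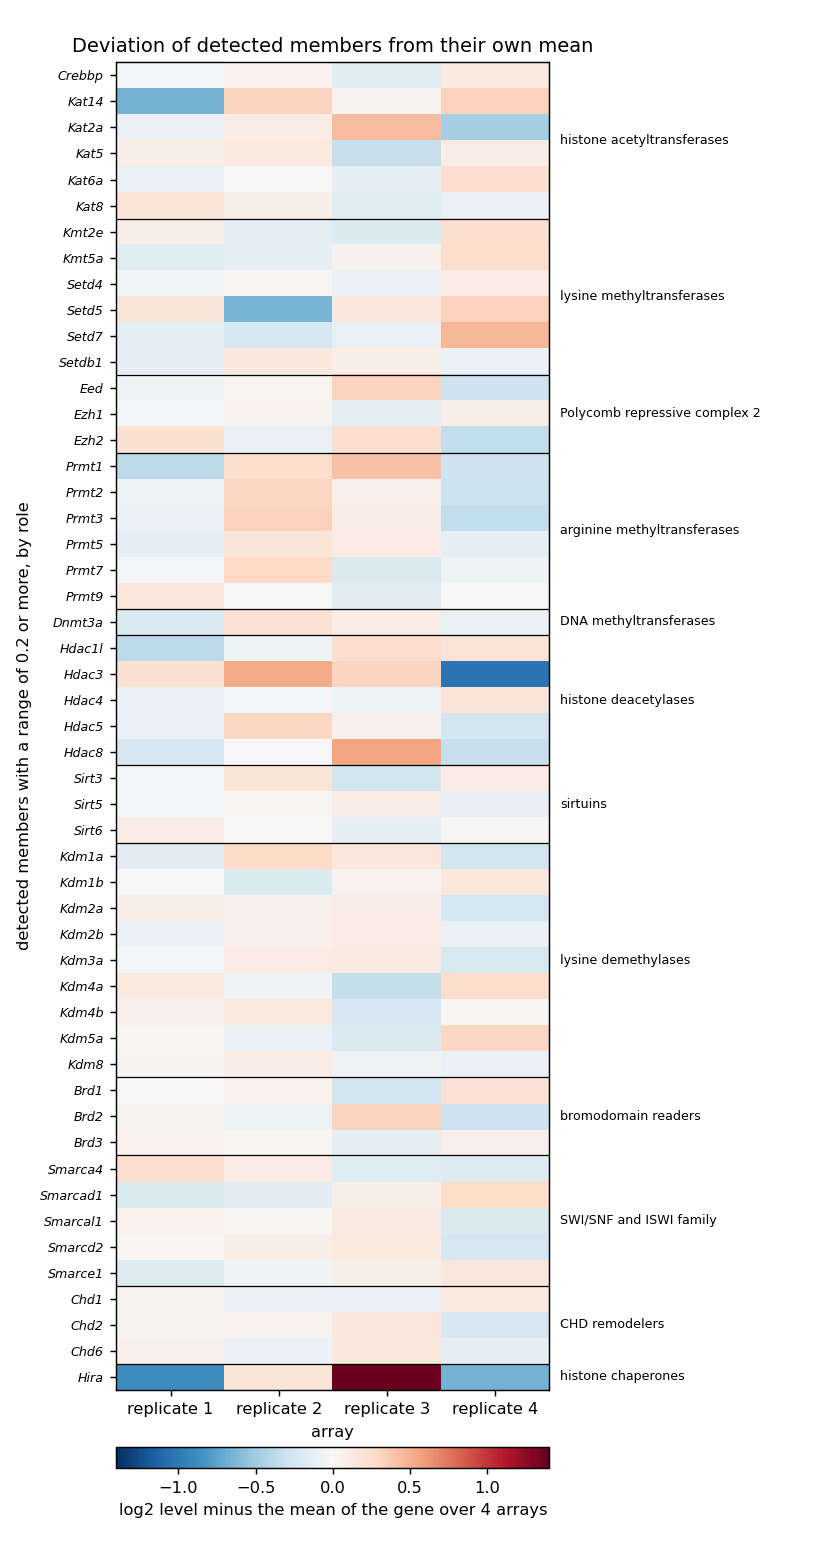
Deviation of the log2 level from the mean of the same gene over 4 arrays (colour) for the 51 of 65 detected members whose arrays spanned 0.2 or more (rows, by role) on each array (columns). Most rows are pale, and the strongest colours are Hira on replicate 3 and Hdac3 on replicate 4.

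The spread between replicates was tested over all 8455 detected genes with values on each array, by setting the variance of a gene against the variance that limma fits for genes of the same level. Such a p measures only the spread between these 4 samples. The 65 members had a median SD of 0.16, and the 8455 genes one of 0.14. These values follow the brightest probe of each gene. By that probe, highest and lowest array differed by more than 2-fold in 2 members, Hira and Hdac3, where 3.26% of all genes (276) did. Kat14 and Setd5 lay just inside that limit, with ranges of 0.98 and 0.97. Another detected probe of Kmt5b, Prmt1, Chd2 and Smarce1 also spanned more than 2-fold (ranges of 1.512, 1.265, 1.159 and 1.104). The share of all genes with such a probe was not counted. In the variance test 1 member, Hira, passed an adjusted p of 0.05 and is called hypervariable, where 0.237% of all genes (20) did. Before adjustment 5 of 65 members passed that threshold, a share near the background of 6.29% over all genes. Beside Hira these were Hdac3 (unadjusted p = 0.00327, adjusted p = 0.339, limma), Prmt1 (unadjusted p = 0.00367, adjusted p = 0.349), Setd5 (unadjusted p = 0.00847, adjusted p = 0.467) and Hdac1l (unadjusted p = 0.0345, adjusted p = 0.689), which did not pass after adjustment.

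**Figure D3:**
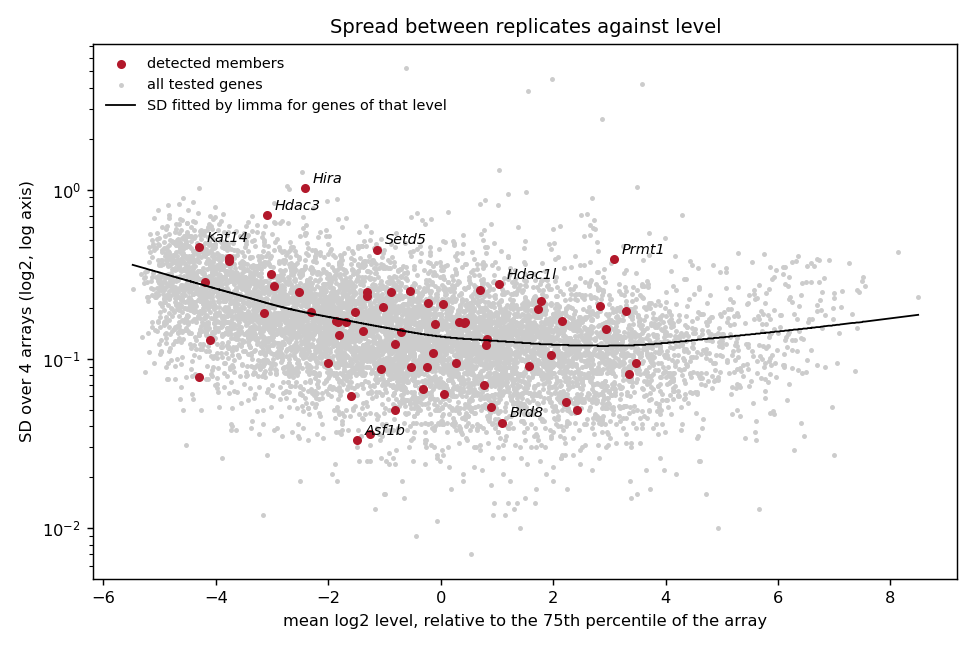
SD over 4 arrays (y axis, log scale) against mean log2 level (x axis) for the 65 detected members (red) and all 8455 tested genes (grey); the line is the SD that limma fits for genes of that level. Hira and Hdac3 lie far above the line, Asf1b and Brd8 far below it.

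Among the 3 histone chaperones, 1 gene varied most of all detected members and another least. Hira, which deposits the replacement variant of histone H3 outside replication, was at -3.29, -2.24, -1.04 and -3.07, or intensities of 89.6, 197, 602 and 99.0 (SD 1.02, adjusted p = 0.0437, limma). It was highest on replicate 3 and spanned 4.78-fold. A second Hira probe for the same accession was at -4.14, -4.12, -3.82 and -3.98, a range of 0.32: it too was highest on replicate 3 and lowest on replicate 1, but by far less. None of 25 well detected spots near the brighter Hira spot deviated by more than 1 on any array. The call was lost with the mean of both probes (adjusted p = 0.542), without replicate 3 (0.983), without replicate 4 (0.0603), with quantile normalization (0.157), with scaling to detected probes (0.0941) and without the trend (0.91, limma). Its range stayed at 2.24 or more under the last 3 of these settings and without replicate 4, and was 1.29 with the mean of both probes and 1.05 without replicate 3. It held with no scaling, with normexp, with no filter and without replicate 1 or 2, and over all alternatives the adjusted p of Hira lay between 1.07e-05 and 0.983 (limma). Asf1b, the chaperone of dividing cells that passes histones H3 and H4 on, was at -1.48, -1.50, -1.51 and -1.43, an SD of 0.03. Its paralog Asf1a was well above background on 1 array (-5.96, -5.28, -5.91 and -5.08).

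For Prmt1 both probes were higher on replicates 2 and 3. Its brighter probe has 10 spots per array, whose SD within an array was 0.10 to 0.16, while the array means had an SD of 0.39. The array SD was also above the spot SD for Kmt5a (0.19 and 0.08) and Smarcd2 (0.17 and 0.08), so this order was not limited to Prmt1. Its second probe was at -1.79, -0.85, -0.84 and -2.10. Setd5, a SET domain protein, was at -0.96, -1.78, -0.98 and -0.80, low on replicate 2, and had 1 probe with 1 spot. Hdac3 too had 1 probe with 1 spot, and without replicate 4 its range was 0.31. The unadjusted p of Prmt1 lay between 0.00058 and 0.0508 over all alternatives, and its adjusted p never fell below 0.0989 (limma).

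Of 22 members with several probes detected on 4 arrays, the probes agreed on the highest array in 7 (31.8%) and on the lowest in 4 (18.2%). Over all 1754 named genes of that kind the shares were 34.7% and 33.4%. Another probe spanned more than the brightest in 15 of the 22 members (68.2%) and in 70.2% of all such genes, so a narrow range holds for the brightest probe only. Smarce1, a DNA-binding SWI/SNF subunit, has 4 probes. Its brightest was at 2.76, 2.87, 3.01 and 3.10, while the other 3 were higher on replicates 2 and 3 than on replicates 1 and 4, the second for example at -0.35, 0.22, 0.38 and -0.37. RefSeq lists 11 pseudogenes of Smarce1. For Kmt5a the 3 probes shared replicate 4 as the highest array, and the second was at 0.93, 0.52, 0.44 and 1.25. Kat7 had its highest value on replicate 4 and its lowest on replicate 3 by both probes. Which probe stands for a gene therefore changes the order of the arrays for most of these members.

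**Figure D4:**
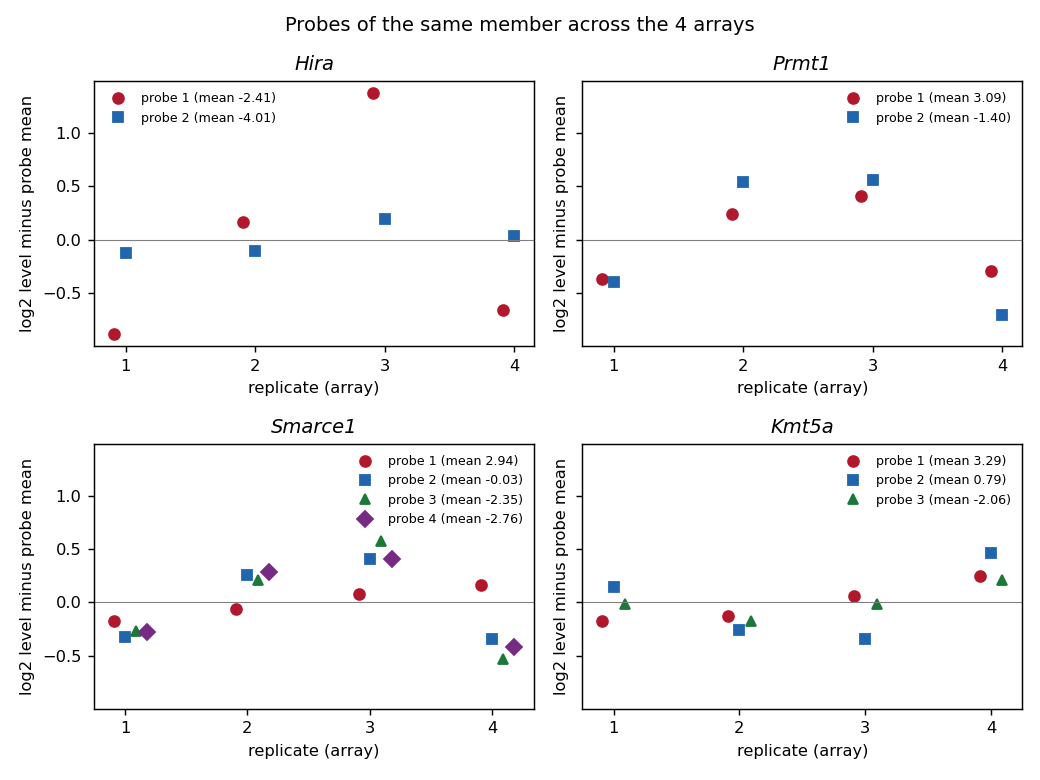
Log2 level minus the mean of the probe (y axis) on each array (x axis) for the probes of Hira, Prmt1, Smarce1 and Kmt5a, numbered from the brightest and with their means in the legend. The Prmt1 probes move together, as do Smarce1 probes 2 to 4, while the Hira probes differ in size.

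Each gene was also set against its own mean over the arrays. The median deviation on replicates 1 to 4 was -0.02, 0.02, 0.04 and 0.00 for the members, and -0.02, 0.02, -0.03 and 0.04 for all tested genes. The proliferation genes deviated by a median of 0.07, -0.02, -0.10 and 0.07 on the same arrays, and their part in the members' values was not tested.

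Partner genes outside the rule had a similar median spread. Of the 82 detected genes in the list of other chromatin genes, the median SD was 0.14. The SD lay above the one limma fits in 36.6% of them, 50.8% of members and 43.0% of all genes. More than 2-fold was spanned by 1, where 3.26% of all genes did. In the limma test 0 were hypervariable (0.237% of all genes), and 3 had an unadjusted p under 0.05 (6.29% of all). The gene over 2-fold was Ing3, a subunit of the Tip60 complex, at -3.25, -3.08, -1.19 and -3.24 (adjusted p = 0.0562, limma). Like Hira it was highest on replicate 3. Among the partners of members were Rbbp4, a histone-binding subunit shared by Polycomb repressive complex 2 and NuRD (2.77, 2.81, 2.71 and 2.73), Trrap, the scaffold of the Tip60 and SAGA complexes (-0.89, -0.92, -0.95 and -0.92), and Ubn1, which works with Hira (2.96, 3.08, 3.04 and 2.75). The Polycomb readers Cbx2, Cbx6 and Cbx7, the histone chaperone Supt16h, the SWI/SNF subunit Actl6b, Cecr2, Padi4 and Uty did not rise well above background on any array. All of these but Cecr2 had a single named probe, so their call rests on that probe alone.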

How the data were processed

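RNA of 4 cultures was measured on 4 one-colour Agilent rat arrays, 1 per sample. Per the labels' protocols 100 ng of RNA was copied into Cy3-labelled cRNA. The deposited files come from Agilent Feature Extraction 11.0.1.1, per the file headers, and hold spot intensities on a linear scale, already background-handled within the array, with flags of another kind (0 or 1) for background, saturation and outliers. No step between arrays was applied to the deposited intensities, per the file headers, and all arrays share 1 slide and 1 scan date, so no batch could be set apart.

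Spots with an outlier flag (1.11% to 1.45%) were left out, no gene spot was saturated, and spots of a probe were averaged as log2 processed signal, from which the log2 of the 75th percentile over gene spots was taken (an intensity of 831 to 1237). Accessions were matched without versions to RefSeq (GRCr8), for names only, since the headers name another build. A gene took its brightest probe. Detection needed more than 50% of a probe's spots. The variance test used an intercept-only fit with eBayes (trend, robust) in limma 3.58.1 and R 4.3.3. An upper-tail F test and Benjamini-Hochberg adjustment over 8455 genes followed. The test was also run on simulated data, whose outcome is not given here, so no statement rests on that run. Other steps used Python 3.11.15 with numpy 2.4.6, pandas 2.3.3 and matplotlib 3.10.9. The number of arrays limits the precision.

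Members and lists were chosen with earlier results of these data known. Genes are named as follows: every member by its detection, those over 2-fold, hypervariable, partly detected or with probes that differ in detection, the widest and narrowest of each role, and a fixed list of well-known members. Genes of the other lists were named after their values were seen. The values of 1 member are not reported here. A planned comparison of paralog proteins was not made, since no protein sequences were used here. Normexp was run on the median spot signal. The alternatives tried were other detection rules, scalings, background correction, filter, probe rule, variance prior and leaving out each array.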

Additional observations from a re-analysis of the deposited data

Results flagged for a closer look

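In 2 of the 65 detected members (3.08%) 1 array lay far from the other 3, by the ratio of its gap to the whole range (Dixon's criterion for 4 samples). Over all 8455 tested genes 6.20% (524) had such an array, and chance alone gives this in about 1 of 20 groups, so the count over members does not stand out. Kat5 had a level of 1.45 on replicate 3, whereas its other arrays spanned 1.87 to 1.92, a ratio of 0.89. Kdm2a, a demethylase that binds CG islands, had a level of 0.16 on replicate 4, whereas its other arrays spanned 0.47 to 0.51, a ratio of 0.88. Each has 1 named probe, and neither passed the variance test (adjusted p = 0.894 and 0.995, limma).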

How the results depend on the processing

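The count of detected members was 65 to 70 under all detection rules, and 12 to 14 were not detected when each replicate was left out. With detection by the flag for positive and significant spots, and with the 95th percentile of the negative controls, 7 were not detected in place of 12, and Asf1a, Chd5, Prmt8, Setd6 and Sirt4 counted as detected. Over all named genes the share not detected was then 14.1% and 16.2%, in place of 42.6%. Members over 2-fold numbered 12 with no scaling, 1 with normexp and 9 with no filter on dim probes, in place of 2, and all genes over 2-fold 833, 77 and 3907, in place of 276. No scaling moved the median of all genes by -0.12, -0.04, 0.37 and -0.20 on replicates 1 to 4 and gave a median SD of 0.287 over members. No member was hypervariable (0) with quantile normalization, scaling to detected probes, the mean of the detected probes or no trend, and 1 was otherwise with all arrays. All genes called numbered 10 with quantile normalization, 58 with normexp, 79 with no filter and 4 with no trend, in place of 20. The median level of the members was -1.29 with no filter and -1.13 with the mean of the probes, in place of -0.55, and that of all genes -4.72 and -0.82, in place of -0.50. The median of the members minus that of all genes was 0.04 on replicate 3, and -0.36 with the mean of the probes. It compares different probes, so no statement rests on it. Leaving out each replicate gave 0 to 1 hypervariable members, 3 to 61 hypervariable genes, 1 to 2 members and 129 to 231 genes over 2-fold, and a median level of -0.643 to -0.495. The fewest genes were called without replicate 3 (3) and the most without replicate 2 (61), with 51 without replicate 1 and 10 without replicate 4. Ranges of 60 single members moved by more than their SD in 49 with no scaling, 17 with normexp, 2 with quantile normalization and 3 to 15 without 1 replicate. The cause of these differences was not tested. No paired analysis was possible because the series holds 1 group. Signal near background limits the values of genes not detected.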
